A study of Mus musculus with 16 samples.

Results

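The epidermal growth factor (EGF) family was followed as 6 ligand genes (Ereg, Areg, Hbegf, Btc, Tgfa and Nrg1) and 4 receptor genes (Egfr, Erbb2, Erbb3 and Erbb4), taken by symbol through the table that pairs the array's probes with genes. Of these 10 genes, 9 were measured, each by 1 probe, among 17710 genes on the array. Areg had no probe in that table and was not analysed here. The arrays were read from mouse cells, 16 in all, every one from the strain C57BL/6 with the genotype given as Normal. From the heart came 3 arrays of cells sorted as positive for c-kit, a growth factor receptor of stem and mast cells (here heart c-kit cells), 3 of cells positive for Sca1 and negative for CD45 and CD31 (heart Sca1 cells), and 2 of side population (SP) cells, which are found by their efflux of a Hoechst dye (heart SP cells). From the bone marrow came 3 arrays of c-kit sorted cells (marrow c-kit cells) and 3 of mesenchymal stem cells harvested after 5 passages (marrow MSC). Cardiomyocytes collected by a short spin at 100 rpm served as the control on 2 arrays. The labels list Matrigel-coated dishes and mTeSR medium for every sample. They name no animal or culture for a replicate, so p-values reflect only array-to-array spread, part or all of which could be technical.

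Ligands of the EGF family are made as membrane-anchored precursors, and metalloproteases of the ADAM family cut them free. A ligand brings receptors together in pairs: EGFR binds epiregulin, HB-EGF, betacellulin and TGF-alpha, ErbB3 and ErbB4 bind neuregulins, and ErbB2 has no known ligand of its own but is the preferred partner of the others. The active pairs signal through RAS and ERK and through PI3K and AKT, and the response is held back by inhibitors that the same pathway induces. In the heart, neuregulin-1 from the endothelium acts on ErbB4 and ErbB2 of cardiomyocytes, and HB-EGF and EGFR are needed for normal valves.

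Levels are log2 values of Cy5 spot intensity, quantile normalised over all 26423 probes, and a difference is the log2 level of the first group minus that of the second, with its standard error (SE). Levels of different probes cannot be ranked against each other, so only cell groups are compared within a gene. Before normalisation the median spot intensity was 15 to 200 per array, and it was lowest on the SP arrays (15 and 22) and on heart c-kit replicate 2 (18). On each array 3.38% to 13.765% of probes carried a single repeated low value, called the fill value here, and a gene at it has only an upper bound. The sort gene Kit ran from 2.13 to 5.04 on the heart c-kit arrays and from 5.18 to 5.82 on the marrow c-kit arrays, with no other array above 2.16. The mean level of 8 fibroblast markers was 6.05 to 6.35 on the Sca1 arrays and 5.05 to 5.21 on the SP arrays, against 0.57 to 2.69 on the heart c-kit arrays and 1.41 to 2.29 on the MSC arrays. The mean of 8 endothelial markers was 4.63 to 5.51 on the heart c-kit arrays and 6.31 to 6.79 on the cardiomyocyte arrays, and it reached 5.41 on Sca1 replicate 3 although that sort excluded CD31. The mean of 6 leukocyte and macrophage markers was 6.58 to 7.05 on the MSC arrays, the highest of the 6 groups. The mean of 6 cardiomyocyte markers was 6.62 to 6.63 on the cardiomyocyte arrays and no higher than 3.52 on any other array. The part of these other cell types in the differences below was not tested beyond the values given, and in bulk RNA fewer cells of a type and less RNA per cell cannot be told apart.

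Over the 6 groups, 4 of the 9 measured genes differed by the moderated F test of limma at an adjusted p under 0.05: the ligands Ereg, Hbegf and Nrg1 and the receptor Egfr. Of all 17710 genes 31.9% passed the same test. Of 135 differences tested (9 genes in 15 pairs of groups), 29 were called, or 21.5%, and over all genes 10.6% of such differences were called. The count over the 6 groups was 7 without SP replicate 2, and 7 with array weights estimated per group, with Btc, Tgfa and Erbb2 added in both cases. Between Sca1 cells and cardiomyocytes 0% of genes were called by limma (2067 of 17710 had an unadjusted p under 0.05), the ligands and receptors included.

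**Figure D1:**
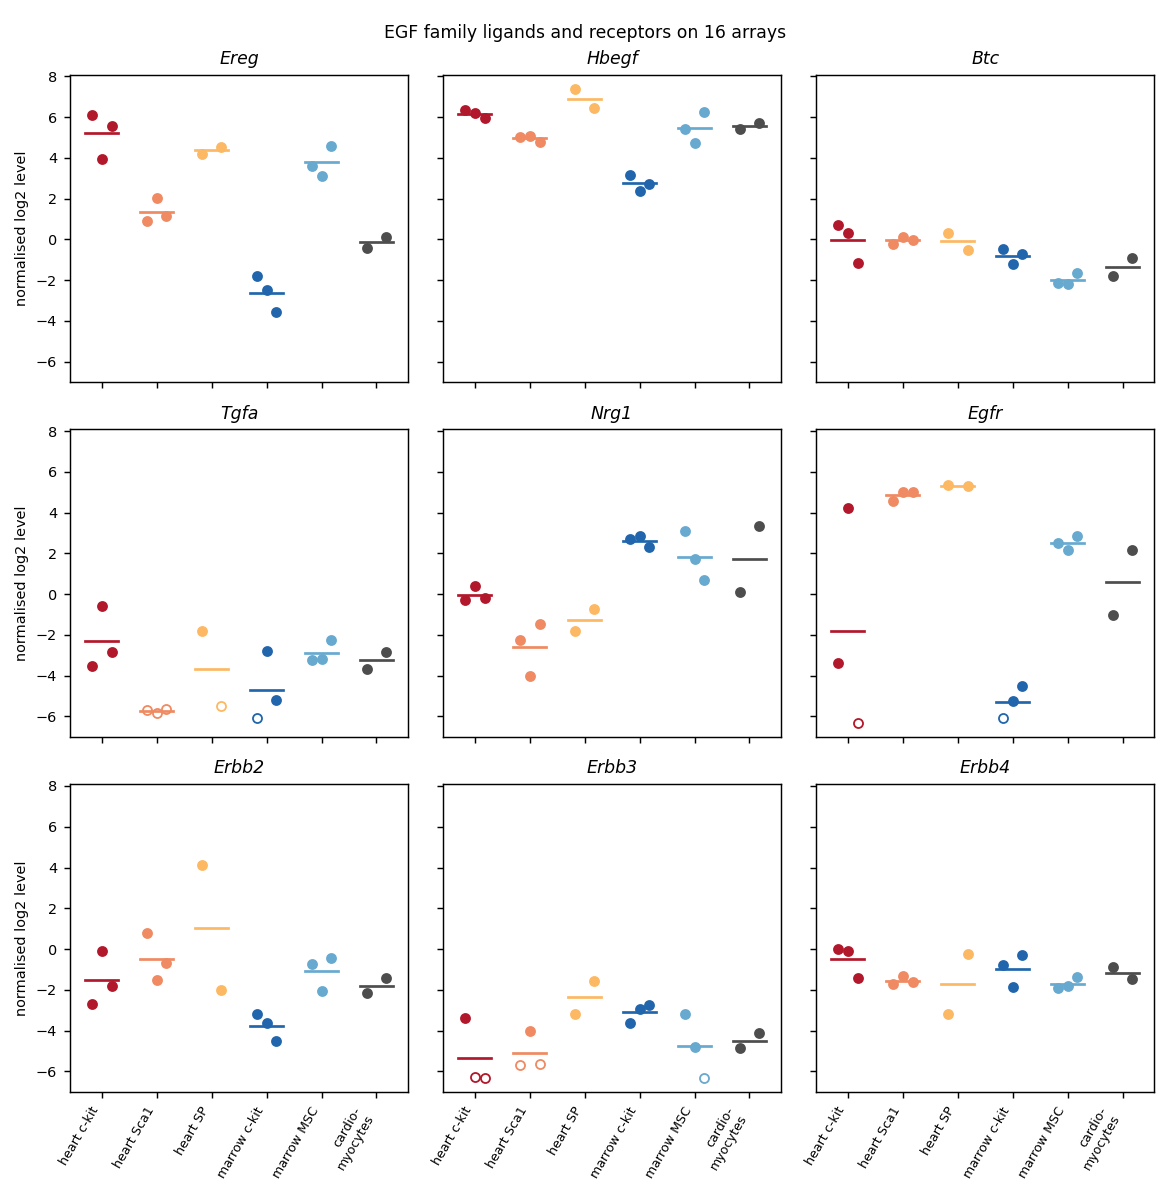
Normalised log2 level (y axis) of the 9 measured EGF family genes on 16 arrays, by cell group (x axis). Each point is an array and each bar a group mean. Open points lie at or below the array's fill value and are bounds, as for Tgfa on all 3 Sca1 arrays. Ereg, Hbegf and Egfr were lowest in mean level in marrow c-kit cells, and Nrg1 was highest there.

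Ereg, which encodes the ligand epiregulin, had its lowest level in marrow c-kit cells and its highest mean in heart c-kit cells. The heart c-kit arrays read 6.09, 3.93 and 5.56, a mean of 5.19 ± 1.13 (SD, n = 3). The SP arrays read 4.20 and 4.53 (4.37 ± 0.23, SD, n = 2), and the MSC arrays 3.62, 3.11 and 4.60 (3.78 ± 0.76, SD, n = 3). These 3 groups overlapped, and the differences between neighbours in this order, 0.83 ± 0.76 (SE) and then 0.59 ± 0.76, were not called. The Sca1 arrays were lower at 0.90, 2.05 and 1.14 (1.36 ± 0.61, SD, n = 3). The cardiomyocyte arrays read -0.41 and 0.10 (-0.15 ± 0.37, SD, n = 2), and the marrow c-kit arrays -1.82, -2.50 and -3.56 (-2.63 ± 0.87, SD, n = 3). The spot intensities behind the marrow c-kit values were 17, 13 and 7, all above the fill value, against 2083, 873 and 5065 in heart c-kit cells. Every array of the upper 3 groups lay above every array of the other 3 groups.

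The c-kit sorted cells of the heart and of the marrow thus stood at opposite ends of the Ereg order. Their difference was 7.82 ± 0.68 (SE, limma adjusted p = 4.71e-06), in a comparison where 10.8% of genes were called. Ereg was also higher in heart c-kit cells than in Sca1 cells by 3.83 ± 0.68 (adjusted p = 0.00266), with 11.1% of genes called, and than in cardiomyocytes by 5.35 ± 0.76 (adjusted p = 0.00175), with 3.58% called. The last of these calls was lost when only the arrays of the groups compared were fitted (5.01, adjusted p = 0.135). Marrow c-kit cells were lower than each of the other 5 groups. Sca1 cells exceeded them by 3.99 ± 0.68 (SE, adjusted p = 0.00082), with 16.5% of genes called, and SP cells by 6.99 ± 0.76 (adjusted p = 2.11e-05), with 21.2% called. Marrow c-kit minus MSC gave -6.40 ± 0.68 (adjusted p = 2.81e-05), with 11% called. These 3 differences were called whichever array was left out. Markers of blood progenitors also separated the c-kit sorts. The mean of 4 blood progenitor markers was 6.64 to 7.04 on the marrow c-kit arrays, 2.31 to 3.03 on the heart c-kit arrays and at most 3.83 on any other array. The mean of 5 mast cell markers overlapped between them, at 1.55 to 2.19 on the marrow c-kit arrays and 0.53 to 1.64 on the heart c-kit arrays. It was below 0 elsewhere. These markers did not all go the same way. Among them Tpsb2 and Cma1 were highest in heart c-kit cells, at 7.35, 5.70 and 6.33 and at 3.91, 3.91 and 3.04. On the marrow c-kit arrays they read 2.28 to 3.87 and -3.32 to -1.84. Another mast cell protease gene, Cpa3, went the other way, with means of 2.57 in heart c-kit and 4.60 in marrow c-kit cells. Of the 5 markers, 2 were called higher and 2 lower in heart c-kit than in marrow c-kit cells, with a median difference of -2.03. The part of these cells in the Ereg differences was not tested.

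Other Ereg calls rested on fewer arrays. Marrow c-kit cells lay below cardiomyocytes by -2.47 ± 0.76 (SE, limma adjusted p = 0.0488), with 12.4% of genes called, and this call was lost without either cardiomyocyte array, any MSC array, any Sca1 array, marrow c-kit replicate 2 or 3 or heart c-kit replicate 3, with values from -2.00 to -2.76 and adjusted p from 0.0514 to 0.212. It was also lost in 7 of 10 fits with other settings (-1.48 to -2.73). SP cells exceeded cardiomyocytes by 4.52 (adjusted p = 0.00884), with 5.17% of genes called. This was lost without cardiomyocyte replicate 1 (4.38, adjusted p = 0.0623), with array weights (adjusted p = 0.127) and in a fit of only the arrays compared (adjusted p = 0.22). MSC exceeded cardiomyocytes by 3.93 (adjusted p = 0.0065), with 7.87% of genes called, lost without the same array (3.78, adjusted p = 0.0688). Sca1 cells were lower than SP cells by -3.00 (adjusted p = 0.032), with 6.83% of genes called. This was lost without either SP array or without Sca1 replicate 1 or 3 (-2.77 to -3.08, adjusted p 0.0745 to 0.101), and in 3 of 9 fits with other settings (highest adjusted p 0.192). They were lower than MSC by -2.41 (adjusted p = 0.037), with 10.3% of genes called. That was lost without any MSC array, marrow c-kit replicate 2 or Sca1 replicate 1 or 3 (-2.00 to -2.75, adjusted p 0.0519 to 0.16), and in 3 of 10 fits with other settings (highest adjusted p 0.0855). In each such refit with a single array left in a group, that array is assumed to vary like the other groups.

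**Figure D2:**
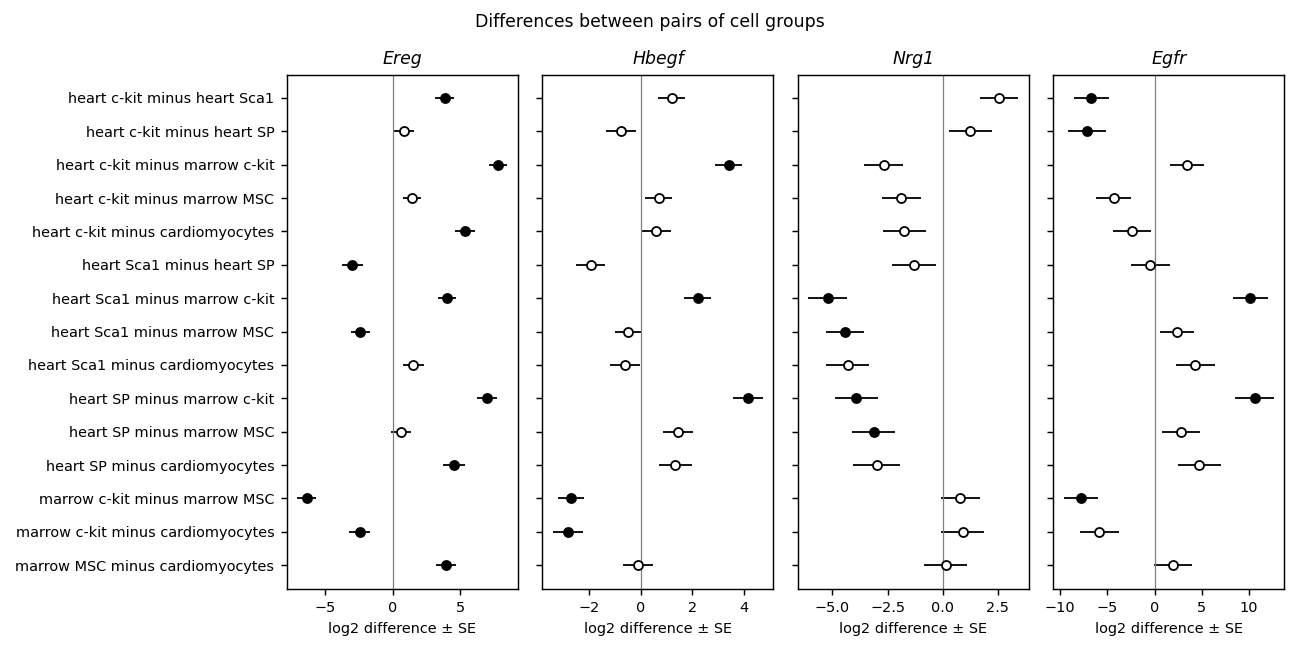
Log2 difference with its SE (x axis, a separate scale in each panel) for Ereg, Hbegf, Nrg1 and Egfr in 15 pairs of cell groups (y axis). Filled points passed limma's adjusted p under 0.05 and open points did not. All 5 called Hbegf differences involve marrow c-kit cells, and Ereg was called in 11 of the 15 pairs.

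Hbegf, which encodes heparin-binding EGF-like growth factor, was lower in marrow c-kit cells than in every other group. Its arrays read 3.16, 2.37 and 2.71 in marrow c-kit cells (2.75 ± 0.40, SD, n = 3). Elsewhere they read 7.40 and 6.42 in SP cells, 6.33, 6.19 and 5.94 in heart c-kit cells, 5.41 and 5.73 in cardiomyocytes, 5.40, 4.72 and 6.25 in MSC and 5.00, 5.06 and 4.79 in Sca1 cells. The highest marrow c-kit array thus lay below the lowest array of every other group. The differences from marrow c-kit cells were 4.16 for SP cells (limma adjusted p = 0.000165), 3.41 for heart c-kit cells (adjusted p = 0.00057), 2.71 for MSC (adjusted p = 0.00341) and 2.21 for Sca1 cells (adjusted p = 0.00854). For cardiomyocytes the difference of marrow c-kit minus cardiomyocytes was -2.83 ± 0.58 (SE, adjusted p = 0.00507). All 5 calls held with any 1 array left out. With array medians aligned, the Sca1 call was lost (2.77, adjusted p = 0.0672) and the SP difference was 6.72, or 5.44 above the median of all genes. The cardiomyocyte call was lost with medians aligned (-1.86, adjusted p = 0.421) and on the deposited values (-1.89, adjusted p = 0.297). Among the other 5 groups no pair was called, the nearest being Sca1 minus SP cells at -1.95 ± 0.58 (adjusted p = 0.06).

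Nrg1, which encodes neuregulin-1, ran the other way. The marrow c-kit arrays read 2.69, 2.87 and 2.33 (2.63 ± 0.27, SD, n = 3), the MSC arrays 3.10, 1.71 and 0.72 (1.84 ± 1.20, SD, n = 3), and the cardiomyocyte arrays 0.10 and 3.33, which is too wide a spread to place that group. The heart c-kit arrays read -0.31, 0.39 and -0.19, the SP arrays -1.83 and -0.75, and the Sca1 arrays -2.27, -4.02 and -1.47. All 6 marrow arrays thus lay above all 8 arrays of the 3 cardiac populations. The spot intensities were 15, 6 and 30 on the Sca1 arrays and 7 and 15 on the SP arrays. These are low, though above the fill value, so the sizes of the differences below are uncertain. Sca1 cells were lower than marrow c-kit cells by -5.21 ± 0.88 (SE, limma adjusted p = 0.000724) and lower than MSC by -4.43 ± 0.88 (adjusted p = 0.00474). Both were called with any 1 array left out. SP cells were lower than marrow c-kit cells by -3.92 ± 0.98 (adjusted p = 0.0111), and this was lost without SP replicate 1 (-3.33, adjusted p = 0.0789) and with array weights (adjusted p = 0.0996). They were lower than MSC by -3.13 ± 0.98 (adjusted p = 0.0414), where 17.7% of genes were called. That call was lost without any of the 3 marrow c-kit arrays, MSC replicate 1 or 2, Sca1 replicate 1 or either SP array (-2.47 to -3.67, adjusted p 0.0538 to 0.186), and in 4 of 9 fits with other settings (highest adjusted p 0.195). Heart c-kit cells were called lower than neither marrow c-kit cells (-2.67 ± 0.88, adjusted p = 0.0714) nor MSC (-1.88 ± 0.88, adjusted p = 0.179). Neighbours in the Nrg1 order did not differ by limma in any of the 5 steps (lowest adjusted p 0.425). The leukocyte and macrophage markers were also highest in both marrow groups (4.72 to 7.05), against -1.58 to 3.62 in the cardiac populations and 3.34 to 3.93 in cardiomyocytes. Within the marrow they were higher in MSC (6.58 to 7.05) than in marrow c-kit cells (4.72 to 5.67), the reverse of mean Nrg1. The endothelial marker mean was -1.25 to 0.23 in the marrow groups and 0.56 to 5.51 in the cardiac populations. The part of these markers in the Nrg1 difference was not tested.

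Btc, the gene of betacellulin, did not pass the test over the 6 groups (F = 3.84, limma adjusted p = 0.0624). The MSC arrays were the lowest at -2.16, -2.19 and -1.63 (-1.99 ± 0.32, SD, n = 3). The Sca1 arrays read -0.25, 0.11 and -0.02, the SP arrays 0.31 and -0.51, and the heart c-kit arrays 0.70, 0.33 and -1.14. None of these 8 arrays fell as low as an MSC array. Spot intensities were 13, 47 and 19 in MSC, 87, 123 and 114 in Sca1 cells, 19 and 17 in SP cells and 169, 25 and 16 in heart c-kit cells. Most of these are low, though above the fill value, so the sizes of the differences are uncertain. Marrow c-kit cells read -0.48, -1.20 and -0.72 and cardiomyocytes -1.80 and -0.93, so that 1 cardiomyocyte array lay within the MSC range. MSC were called lower than heart c-kit cells (difference 1.96 ± 0.57, SE, adjusted p = 0.0378), where 12.1% of genes were called, and lower than Sca1 cells (1.94 ± 0.57, adjusted p = 0.0431). The first call was lost without any MSC or Sca1 array, marrow c-kit replicate 2 or heart c-kit replicate 1 or 2 (1.62 to 2.11, adjusted p 0.0525 to 0.13), and the second without any array of marrow c-kit cells, MSC or Sca1 cells (1.81 to 2.08, adjusted p 0.0562 to 0.145). They were also lost in 6 and 4 of 10 fits with other settings, with adjusted p up to 0.228 and 0.0885.

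Tgfa, the gene of transforming growth factor alpha, lay near the floor throughout (F = 2.98, limma adjusted p = 0.113). It was at the fill value on 5 arrays, among them all 3 Sca1 arrays, and its highest reading was -0.57 on heart c-kit replicate 2, a spot intensity of 14. The intensities on the 11 arrays above the fill value ran from 2 to 28. Heart c-kit cells were called against Sca1 cells (adjusted p = 0.0459), but with one side at the fill value no size is given, and the call was lost without any of 11 single arrays (adjusted p 0.0524 to 0.149): any array of MSC, Sca1 cells or cardiomyocytes, heart c-kit replicate 2 or 3, or marrow c-kit replicate 3. It was also lost in 5 of 9 fits with other settings (highest adjusted p 0.328).

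Egfr, a receptor of epiregulin, HB-EGF, betacellulin and TGF-alpha, separated the groups in a different order from these ligands (F = 9.18, limma adjusted p = 0.00393). The SP arrays read 5.35 and 5.30 (5.32 ± 0.03, SD, n = 2) and the Sca1 arrays 4.57, 5.02 and 5.02 (4.87 ± 0.26, SD, n = 3). The MSC arrays read 2.52, 2.15 and 2.86 (2.51 ± 0.36, SD, n = 3) and the cardiomyocyte arrays -1.0 and 2.15. The marrow c-kit arrays read -6.08, -5.22 and -4.50, at spot intensities of 1, 2 and 4, the first of them at the fill value. All SP and Sca1 arrays lay above all arrays of the other 4 groups, and marrow c-kit cells lay at or near the floor.

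The heart c-kit arrays differed widely from each other in Egfr. They read -3.36, 4.23 and -6.33 (-1.82 ± 5.44, SD, n = 3), at spot intensities of 21, 1188 and 1, so replicate 2 was close to the Sca1 and SP arrays, replicate 1 was low and replicate 3 lay below the fill value. Replicate 2 is also the heart c-kit array with the lowest median intensity. On the same 3 arrays the fibroblast marker mean was 0.57, 0.99 and 2.69, so the array with high Egfr was not the one with the highest fibroblast markers. The endothelial marker mean there was 4.63, 5.51 and 5.33. Correlations of whole arrays within this group were 0.791 to 0.805 over genes, against 0.748 for the SP pair, 0.894 for the cardiomyocyte pair and 0.91 to 0.942 within the other 3 groups.

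Sca1 cells exceeded marrow c-kit cells in Egfr by 10.14 ± 1.83 (SE, limma adjusted p = 0.00128) and SP cells by 10.59 ± 2.05 (adjusted p = 0.00198). Both were called with any 1 array left out, but as marrow c-kit cells lie at or near the floor these sizes are uncertain. When values under the 30th percentile of all genes and arrays together were raised to it, these sizes were 6.51 and 6.96. MSC exceeded marrow c-kit cells as well (marrow c-kit minus MSC -7.78 ± 1.83, adjusted p = 0.0129). That call was lost without marrow c-kit replicate 1 (-7.40, adjusted p = 0.0522) and with low values raised (-4.15, adjusted p = 0.0678). Heart c-kit cells were lower than Sca1 cells by -6.69 ± 1.83 (adjusted p = 0.0306) and than SP cells by -7.15 ± 2.05 (adjusted p = 0.036), where 11.8% of genes were called. Without heart c-kit replicate 2 these differences were -9.68 (adjusted p = 9.81e-05) and -10.13 (adjusted p = 0.000111), and without replicate 3 they were -4.39 (adjusted p = 0.0803) and -4.84 (adjusted p = 0.0921). Leaving out heart c-kit replicate 1 ended both calls too (-5.95 and -6.41), any Sca1 array ended the first (-6.59 to -6.81), and MSC replicate 1 or either SP array ended the second (-7.10 to -7.14). The first call was also lost with medians aligned (-5.61, adjusted p = 0.078) and in a fit of only the arrays compared (-6.84, adjusted p = 0.171), and the second in 4 of 9 fits with other settings (highest adjusted p 0.359). Across the 6 groups the mean of the 8 fibroblast markers was likewise highest in Sca1 and SP cells and lowest in marrow c-kit cells (-2.48 to -1.84). It was higher in cardiomyocytes (3.85 to 4.82) than in MSC (1.41 to 2.29), whereas mean Egfr was 0.57 and 2.51 there, a difference not called. Single markers could differ from that mean: Col1a1 was highest in heart c-kit cells (mean 5.65) and lowest in SP cells (0.70). The part of these markers in the Egfr differences was not tested.

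**Figure D3:**
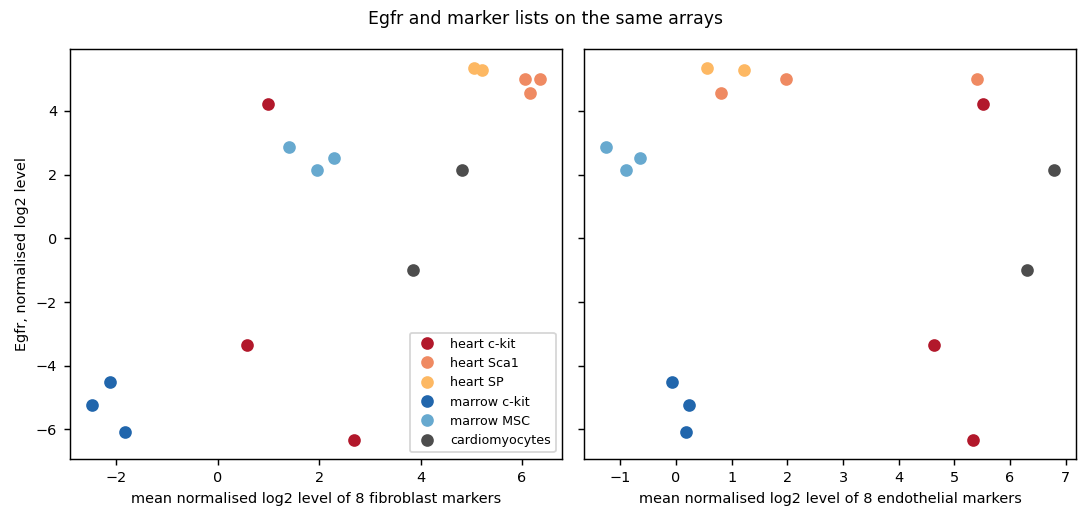
Normalised log2 level of Egfr (y axis) against the mean level of 8 fibroblast markers (left) and 8 endothelial markers (right, x axes, log2) on the same 16 arrays, coloured by cell group. Heart c-kit replicate 2 stands at an Egfr level of 4.23 with a fibroblast mean of 0.99, whereas the Sca1 and SP arrays stand at fibroblast means of 5.05 to 6.35.

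The start region of Egfr is shown because Egfr is the member with the most called differences whose promoter is in the RefSeq table used here, which covers GRCm38.p6. The table held promoters of 6 of the 10 genes, and none for Ereg, Hbegf, Nrg1 and Erbb3. The 300 bases run from 250 before to 50 after the annotated start, at chr11:16751953-16752252 on the + strand, and capitals mark a match to the GC box letters GGGCGG on the opposite strand.
Egfr promoter: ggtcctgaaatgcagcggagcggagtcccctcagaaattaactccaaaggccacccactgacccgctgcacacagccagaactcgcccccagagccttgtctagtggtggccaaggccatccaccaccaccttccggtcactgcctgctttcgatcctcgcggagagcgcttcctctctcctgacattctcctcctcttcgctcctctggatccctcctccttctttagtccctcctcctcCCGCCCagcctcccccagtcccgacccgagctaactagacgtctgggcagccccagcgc
This window held 62.3% G and C bases, against a median of 52.7% over 32851 promoters of the same length. Searched on both strands, it held 1 GC box, found in 35.7% of promoters, and no match to the TATA box TATAAA (13.6% of promoters), the AP-1 site TGANTCA (7.81%) or the cyclic AMP response element TGACGTCA (1.79%). These letters are a description of the window, and binding or methylation was not measured here.

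The other 3 receptor genes did not pass the test over the 6 groups. Erbb2, whose product pairs with the other receptors, read 4.13 and -2.03 on the SP arrays, at spot intensities of 766 and 9. The Sca1 arrays read 0.79, -1.52 and -0.69, the heart c-kit arrays -2.69, -0.12 and -1.81, the MSC arrays -0.74, -2.06 and -0.46, and the cardiomyocyte arrays -2.16 and -1.43. The marrow c-kit arrays were the lowest at -3.18, -3.61 and -4.50, so that SP replicate 1 stood alone at the upper end and marrow c-kit cells at the lower. Erbb2 was called between SP and marrow c-kit cells (4.81 ± 1.37, SE, limma adjusted p = 0.0224), but the difference was 1.74 (adjusted p = 0.336) without SP replicate 1 and 7.87 (adjusted p = 0.000358) without SP replicate 2. It was also lost without marrow c-kit replicate 2 (4.90, adjusted p = 0.0501) or 3 (4.48, adjusted p = 0.0683), and with low values raised (2.88, adjusted p = 0.145), with array weights (adjusted p = 0.0524) and in a fit of only the arrays compared (adjusted p = 0.143).

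Erbb3, a neuregulin receptor with a weak kinase, lay near the floor on every array, with spot intensities of 1 to 21. It was at or below the fill value on 5 arrays: 2 of heart c-kit cells, 2 of Sca1 cells and 1 of MSC. No Erbb3 difference was called by limma (5 of 15 pairs at an unadjusted p under 0.05, lowest adjusted p 0.0845). Erbb4, the neuregulin receptor known from cardiomyocytes, was not at the fill value on any array but varied as much within groups as between them (F = 0.812, limma adjusted p = 0.633). Its spot intensities were also low, from 3 to 125. Its group means ran from -1.70 in SP cells and MSC to -0.51 in heart c-kit cells, and the cardiomyocyte arrays read -0.89 and -1.47, inside the range of the other groups. None of its 15 pairs reached an unadjusted p under 0.05.

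Pooled with equal weight per population, the 3 cardiac populations exceeded cardiomyocytes in 1 gene of the family, Ereg (3.80 ± 0.66, SE, limma adjusted p = 0.0294), and 0.678% of all genes were called in that comparison (0.136% higher and 0.542% lower). All 8 cardiac population arrays lay above both cardiomyocyte arrays, and 5.28% of all genes were likewise without overlap. The Ereg call was lost without cardiomyocyte replicate 1 (3.63, adjusted p = 0.285), cardiomyocyte replicate 2 (4.10, adjusted p = 0.13) or MSC replicate 1 (3.77, adjusted p = 0.0528), with array medians aligned (4.34, adjusted p = 0.132), on the deposited values (3.61, adjusted p = 0.154), with array weights (3.80, adjusted p = 0.126) and in a fit of only the arrays compared (3.92, adjusted p = 0.19). Nrg1 differed by -3.02 ± 0.85 and Btc by 1.30 ± 0.55 without passing (adjusted p = 0.129 and 0.364).

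Against the pooled marrow populations, 5 of the 9 genes were called, where 20.5% of all genes were called. Ereg was higher in the cardiac populations by 3.07 ± 0.45 (SE, limma adjusted p = 0.000259) and Hbegf by 1.90 ± 0.35 (adjusted p = 0.00134). Btc was higher by 1.33 ± 0.38 (adjusted p = 0.022) and Egfr by 4.17 ± 1.22 (adjusted p = 0.0263). Nrg1 was lower by -3.54 ± 0.58 (adjusted p = 0.000619). Of these 5, Nrg1 alone had every cardiac array on one side of every marrow array, as 3.75% of all genes did. Heart c-kit cells taken alone were called in Nrg1 against neither marrow group (adjusted p = 0.0714 and 0.179). For Ereg, Hbegf and Egfr the marrow pool joins groups that were called apart, with MSC above marrow c-kit cells in each gene. Against MSC alone, no cardiac population was called for Hbegf (differences -0.50 to 1.45, adjusted p 0.102 to 0.671) or Egfr (-4.33 to 2.81, adjusted p 0.141 to 0.529). The SE of each Egfr difference draws on the spread of all groups. That spread was widest in heart c-kit cells (SD 5.44), against 0.26 in Sca1 cells and 0.36 in MSC. All Sca1 and SP arrays lay above all MSC arrays in Egfr, so the missing calls do not show equal levels. For Ereg the only call against MSC was the lower level of Sca1 cells. Against marrow c-kit cells alone, no cardiac population was called for Btc (differences 0.70 to 0.77, adjusted p 0.436 to 0.489). The calls of Ereg, Hbegf and Nrg1 held with any 1 array left out. The count was 3 without marrow c-kit replicate 2, MSC replicate 1 or MSC replicate 2, each of which ended the calls of Btc (1.22, 1.26 and 1.30) and Egfr (4.19, 4.14 and 4.08), and Egfr was also lost without marrow c-kit replicate 1 (4.0, adjusted p = 0.0617) or SP replicate 1 (4.13, adjusted p = 0.0502). Btc was lost on the deposited values as well (0.89, adjusted p = 0.269) and with trend and robust moderation (adjusted p = 0.0501). With medians aligned the Hbegf difference was 2.87 (adjusted p = 0.00407), or 2.25 above the median of all genes.

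In the RefSeq table, Epgn, Ereg, Areg and Btc follow one another among protein-coding genes. Ereg was the only one of the 3 measured genes of this run that passed the test over the 6 groups. Epgn, which encodes epigen, read between -0.75 and 3.25 over the 16 arrays (limma adjusted p = 0.42). As a description over 16 arrays, which share cell groups, Ereg and Btc had a Pearson correlation of 0.15, whereas Ereg and Hbegf, which lie apart, had one of 0.85. Ereg and Egfr had one of 0.37, and Nrg1 and Egfr one of -0.51.

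The genes most like each called member were taken by Pearson correlation over the 16 arrays among 16160 genes. For Ereg they were Hmox1 (0.964), which encodes heme oxygenase 1, Procr (0.92), the endothelial protein C receptor, and Pdpn (0.918), podoplanin. Hmox1 followed the same order in part, with 9.49 ± 0.14 (SD, n = 3) in heart c-kit cells, 8.19 in SP cells, 8.35 in MSC, 5.91 in Sca1 cells, 4.46 in cardiomyocytes and 2.64 in marrow c-kit cells. For Hbegf they were Cdkn1a (0.934), the cell cycle inhibitor p21, St3gal5 (0.901) and again Procr (0.9). For Nrg1 they were Trem1 (0.894), a receptor of myeloid cells, Gm9958 (0.894) and Vasp (0.862), a regulator of actin. Of these, Gm9958 and Vasp did not pass the F test over the 6 groups (limma adjusted p = 0.085 and 0.498). The group means of Vasp ran only from 8.25 to 9.15. For Egfr they were Dzip1 (0.967), Rarb (0.953), a retinoic acid receptor, and Angptl2 (0.952). Dzip1 shared the spread of Egfr among heart c-kit arrays, with a mean of -0.82 ± 4.45 (SD, n = 3) there.

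Beyond the 10 genes, 57 of 64 listed genes of the pathway were measured, and 23 of them (40.4%) passed limma's test over the 6 groups, against 31.9% of all genes. None of the 5 other ligand genes passed that test, with no unadjusted p under 0.05 (the lowest was 0.0567). These were Egf, the founding ligand, with group means of -2.08 to -1.34, Epgn, and the neuregulin genes Nrg2, Nrg3 and Nrg4. Nrg2 was called between heart c-kit cells and MSC (adjusted p = 0.0408), but 2 of the 3 MSC arrays were at the fill value, so no size is given. Nrg3 read 0.14 and 0.26 on the SP arrays and no higher than -1.31 elsewhere. Nrg4 read 0.37, 1.76 and 2.33 in marrow c-kit cells and no higher than 0.74 elsewhere, and neither gene passed (adjusted p = 0.18 and 0.124).

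Of 10 genes for shedding and trafficking of the ligands, 6 passed the test over the 6 groups. Adam8, a metalloprotease of leukocytes, read 7.66, 7.26 and 7.22 in MSC and no higher than 3.58 on any other array. MSC exceeded each of the other 5 groups, by 6.16 to 8.19 (limma adjusted p 0.00294 to 0.0112). The leukocyte and macrophage markers were highest in MSC too, and their part was not tested. Timp3, an inhibitor of the sheddases, was lower in both c-kit sorted groups. It read 5.85, 5.05 and 6.82 in heart c-kit cells and 3.61, 5.33 and 5.54 in marrow c-kit cells, against 9.14 to 9.78 on the 10 arrays of the other groups. Heart c-kit cells were lower than Sca1 cells by -3.72 ± 0.61 (SE, adjusted p = 0.00145) and than cardiomyocytes by -3.52 ± 0.68 (adjusted p = 0.0103).

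Among adaptors and kinases 6 of 23 measured genes passed. Stat3, a transcription factor that receptors of this family can activate, read 5.56 and 5.96 in SP cells and 4.64, 4.96 and 4.83 in Sca1 cells. It read 1.08, 0.79 and 2.46 in heart c-kit cells and 0.48, 1.79 and 0.81 in marrow c-kit cells, all below the Sca1 and SP arrays. Heart c-kit cells differed from Sca1 cells by -3.36 ± 0.62 (SE, limma adjusted p = 0.00357) and from SP cells by -4.31 ± 0.70 (adjusted p = 0.00121). Stat5a, a related factor, read -1.73, -2.08 and -3.05 in heart c-kit cells and 2.83, 3.97 and 3.91 in marrow c-kit cells, a difference of -5.86 ± 1.08 (SE, adjusted p = 0.00245). SP cells read 5.16 and 6.98, above every other array.

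**Figure D4:**
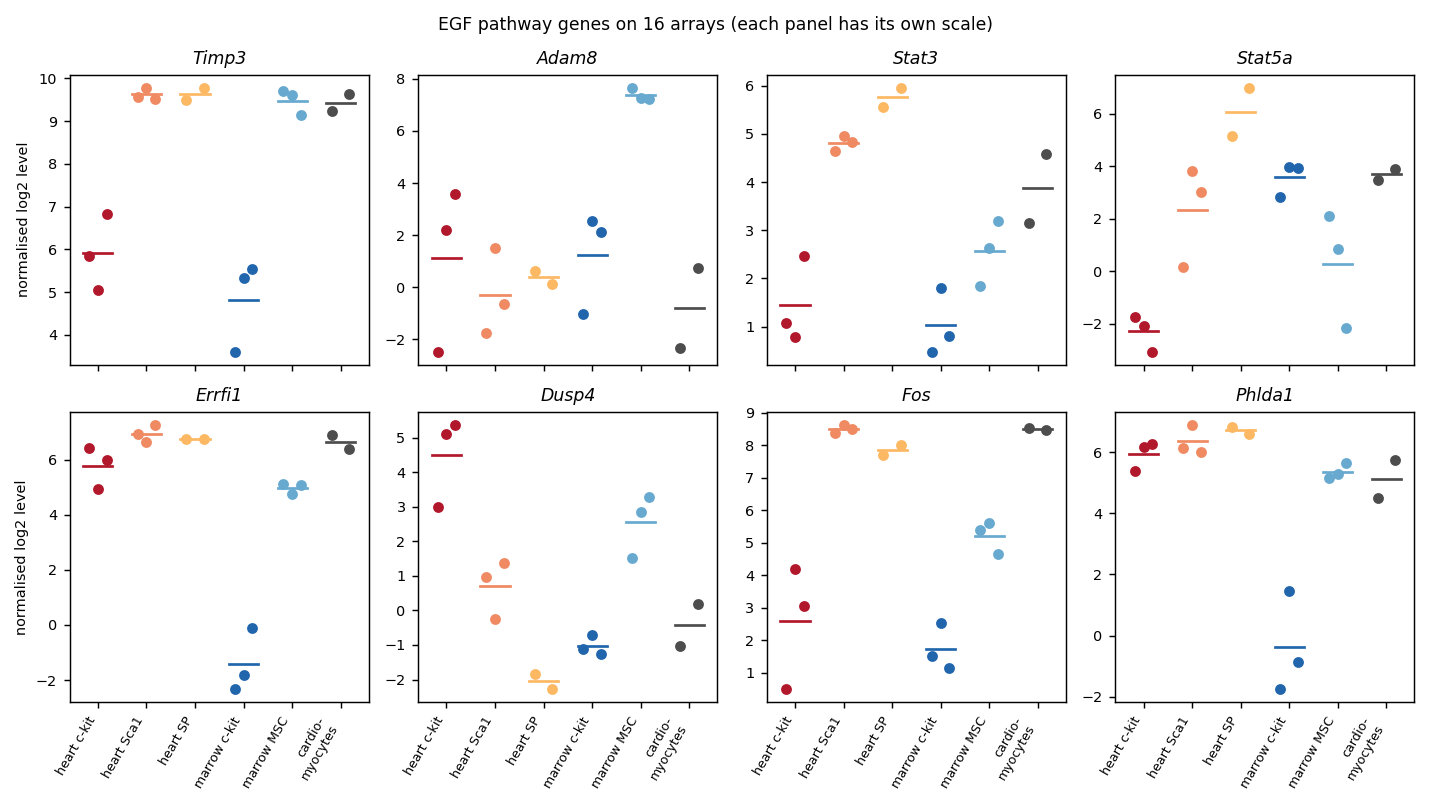
Normalised log2 level (y axis, a separate scale in each panel) of 8 genes of the EGF pathway on 16 arrays by cell group (x axis), with a point per array and a bar per group mean. Errfi1 and Phlda1 are low in marrow c-kit cells, Timp3 and Fos in both c-kit sorted groups, and Adam8 is high in MSC.

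Of 11 measured feedback inhibitors, 6 passed the test over the 6 groups. Errfi1, whose product binds and blocks EGFR, read -2.32, -1.81 and -0.12 in marrow c-kit cells. On the 13 other arrays it read 4.75 to 7.26, so no array came near. Each of the other 5 groups exceeded marrow c-kit cells by 6.40 to 8.36 (limma adjusted p 5.45e-07 to 1.02e-05). Dusp4, a phosphatase that switches ERK off, had another pattern, with 3.00, 5.10 and 5.37 in heart c-kit cells, 1.51, 2.84 and 3.29 in MSC and -2.27 to 1.37 elsewhere. Heart c-kit cells exceeded marrow c-kit cells by 5.51 ± 0.73 (SE, adjusted p = 0.000171) and SP cells by 6.54 ± 0.82 (adjusted p = 0.000189).

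Of 8 measured ERK target genes, 5 passed. Phlda1 read -1.74, 1.47 and -0.86 in marrow c-kit cells and 4.50 to 6.89 on the 13 other arrays, and each other group exceeded marrow c-kit cells by 5.50 to 7.09 (limma adjusted p 1.51e-05 to 0.000418). Fos, an immediate early transcription factor, read 0.51, 4.20 and 3.05 in heart c-kit cells and 1.52, 2.54 and 1.14 in marrow c-kit cells. On the Sca1, SP and cardiomyocyte arrays it read 7.72 to 8.63, and in MSC 5.39, 5.60 and 4.66. The 6 c-kit sorted arrays thus lay below all 10 others. Heart c-kit cells were lower than Sca1 cells by -5.92 ± 0.77 (SE, adjusted p = 0.000262).

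In the comparison of the pooled cardiac and marrow populations, 5 of 11 feedback inhibitors were higher in the cardiac populations and none lower, and 5 of 8 ERK target genes were higher and none lower. Against marrow c-kit cells, heart c-kit cells had 4 feedback inhibitors higher and 0 lower, with 5 and 0 in Sca1 cells and 2 and 1 in SP cells. In these comparisons 10.8%, 16.5% and 21.2% of all genes were called in either direction. Against MSC the same counts were 1 and 0, 3 and 0, and 2 and 2 (SP median -0.35), where 12.1%, 10.3% and 17.7% of all genes were called. The ERK target genes were 3, 3 and 4 higher with 0 lower against marrow c-kit cells, in the same order. Against MSC, heart c-kit cells had 1 higher and 1 lower (median 0.17), with 2 and 0 in Sca1 cells (median -0.11) and 2 and 0 in SP cells (median 0.79). Errfi1 and Phlda1 were called in no cardiac population against MSC. Over all genes 9.12% were called higher and 11.4% lower in the cardiac populations against the pooled marrow populations. In the pooled comparison the median difference was 0.98 for the feedback inhibitors and 1.45 for the ERK target genes, against 0.05 over all genes. Among the 23 adaptors and kinases 1 was higher and 2 were lower, with a median of -0.16, and among the 10 shedding and trafficking genes 2 were higher and 1 lower, with a median of 0.44. Errfi1 was higher by 4.71 ± 0.41 (SE, limma adjusted p = 2.87e-06), Phlda1 by 3.85 ± 0.48 (adjusted p = 6.39e-05), Fos by 2.84 ± 0.51 (adjusted p = 0.00119) and Stat3 by 2.21 ± 0.42 (adjusted p = 0.0017). Heart c-kit cells taken alone were not called higher in Fos or Stat3 than either marrow group. Their Fos was lower than that of MSC by -2.63 ± 0.77 (adjusted p = 0.0393). Their mean Stat3 was 1.45, against 2.56 in MSC.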

How the data were processed

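The values are log2 Cy5 intensities in a table the authors deposited and centred to each array mean. The centring was read from the values: array means lay at 0, except MSC replicate 3 at 0.3. Per the labels' protocols, RNA was amplified by WT-Ovation Pico and labelled through an NHS ester of Cy5. How the scanner was set, whether background was subtracted and what sets the fill value (an array's most frequent value) were not stated in the labels or the table. Intensities were recovered as whole numbers (within 0.005 for all spots under 200). No spot of a family gene was near the scanner's upper limit.

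Values were quantile normalised over 26423 probes, since array medians spread over 1.45 log2 units. Of the probes, 20377 had a symbol. The probe with the highest mean stood for a gene. Group means were fitted to 16 arrays (R 4.3.3, limma 3.58.1, default moderation) and tested by moderated F and contrasts. Benjamini-Hochberg adjustment ran over 17710 genes, with calls made under 0.05. The fit was also run on simulated data, drawn with the same normal spread in all groups and without fill values. That run cannot show how the fit performs under the unequal spread and fill values of these arrays. The number of arrays limits the precision.

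The family, the lists and the tests were chosen with earlier results of these data known. Named were all 10 members, the other ligands, up to 2 called genes of each list with the smallest adjusted F p, the marker genes as lists, and the 3 genes most correlated with each called member among genes at the fill value on no more than 4 arrays. Alternatives were aligned medians, deposited values, removal of the 30% lowest genes, raised low values, probe means, trend and robust moderation, a replicate block, array weights, only the arrays compared, and leaving out each array. A fit without the 3 arrays with a median intensity under 25 was added after seeing the data. Both SP arrays are among these, so that fit held no SP cells.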

Additional observations from a re-analysis of the deposited data

How the results depend on the processing

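Over 894 refits of the 35 named differences of the EGF family, 752 kept their call, 142 lost it and 0 changed direction. The count of family genes called over the 6 groups (4) was 7 with array weights and 4 to 7 with 1 array left out. Without the 3 weak arrays, among them both SP arrays, the SP group dropped out and the count over the remaining groups was 6. The count of called pair differences (29) was 21 with the replicate block and 21 to 34 with 1 array left out. The count for pooled cardiac populations minus cardiomyocytes (1) was 0 with medians aligned, 0 with deposited values, 0 with the replicate block (Ereg 3.79, adjusted p = 0.0583), 0 with array weights, 0 with only the arrays compared, and 0 to 1 with 1 array left out. The count for pooled cardiac populations minus marrow populations (5) was 3 to 6 with 1 array left out, and that of the pathway list (23) was 17 to 28. Over all genes, pooled cardiac populations minus cardiomyocytes gave 120 calls, but 0 with medians aligned, 2 on deposited values, 228 without the lowest 30% of genes, 520 with low values raised, 196 with trend and robust moderation, 38 with the replicate block, 4 with array weights and 0 with only the arrays compared. The cause was not tested. Aligning medians moved the median difference of all genes, most for SP cells minus cardiomyocytes, from 0.06 to 1.34. The rule for pairing by replicate number was not met: of 36 pairs of same-numbered arrays 4 had deviations correlated above 0.1 (range -0.183 to 0.399). Of these, 3 are the pairs among replicate 1 of heart c-kit cells, marrow c-kit cells and cardiomyocytes (0.204, 0.399 and 0.317), and the other joins replicate 2 of marrow c-kit cells and cardiomyocytes (0.32). Those 3 replicate 1 arrays also had the lowest SDs of the deposited values (2.896 to 3.288) and the lowest fill intensities (0.56 to 0.66), so an effect shared by them was not separated from the groups except by the replicate block, under which 9 of 35 calls were lost. Weak signal on the SP arrays and heart c-kit replicate 2 limits values near the fill value.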
